A study of Mus musculus with 2 samples.

Results

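The genes described here are 9 genes of the matrix of dentin and bone: Dspp, Dmp1, Ibsp, Spp1, Bglap, Phex, Sparc, Col1a1 and Col1a2. They were chosen by name, with earlier results of these data known, and all 9 were found among the 19626 genes counted. Each was followed through the 29 clusters that the depositors had numbered over all cells and the 9 clusters they had numbered within the ameloblast lineage, the epithelial cells of enamel formation. RNA of single cells (10x Genomics droplets, 3' ends) had been sequenced from incisor tissue taken at postnatal day 20, which included both the epithelium and the mesenchyme of the cervical loop, the growing end of the tooth. One library came from 1 mouse labelled control, whose alleles the labels do not describe, and 1 library from 1 mouse of genotype Memo1;K14CRE, in which Cre is driven by the keratin 14 promoter of epithelium. The mesenchymal cells that make dentin and bone lie outside the domain of that promoter.

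Dentin and bone are built on fibrils of collagen I, whose chains are the products of Col1a1 and Col1a2, and are made by odontoblasts and osteoblasts. Acidic phosphoproteins bound to that collagen steer the deposition of mineral. Those encoded by Dspp, Dmp1, Ibsp and Spp1 belong to the SIBLING family, whose genes stand in a row on mouse chromosome 5. Odontoblasts are the main source of Dspp, and ameloblasts that are about to secrete enamel are known to make it for a short time.

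In GENCODE M21 (GRCm38) the 4 SIBLING genes among the 9 lie on the plus strand of chromosome 5, within 270339 bases. Dspp lies at 104170712 to 104180127, Dmp1 at 104202613 to 104214102, Ibsp at 104299171 to 104311469 and Spp1 at 104435118 to 104441050. Mepe, which lies between Ibsp and Spp1 (104325329 to 104338611, plus strand), is not among the 9. Bglap lies on chromosome 3 (88383501 to 88384464, minus strand), Phex on chromosome X (157162075 to 157415312, minus strand) and Sparc on chromosome 11 (55394500 to 55423183, minus strand). Col1a1 lies on chromosome 11 (94936224 to 94953042, plus strand) and Col1a2 on chromosome 6 (4504814 to 4541544, plus strand). RefSeq (GRCm38.p6) gave a promoter window for 7 of the 9 genes. Below are the 250 bases before the start of 4 genes that, in the counts, were highest in the odontoblast-like cluster (Dmp1, Bglap, Phex) or, in the control, in pericyte-like cells (Spp1). The sequences are written 5' to 3' on the strand of the gene, and capitals mark ACCACA, the reverse complement of TGTGGT, the core bound by RUNX2, a transcription factor of osteoblasts.
Dmp1 (chr5:104202367-104202616, plus strand): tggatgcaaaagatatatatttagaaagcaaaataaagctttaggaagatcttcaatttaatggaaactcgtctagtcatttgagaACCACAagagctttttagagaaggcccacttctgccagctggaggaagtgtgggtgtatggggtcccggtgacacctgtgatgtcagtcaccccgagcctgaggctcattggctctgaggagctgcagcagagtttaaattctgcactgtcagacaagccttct
Bglap (chr3:88384467-88384716, minus strand): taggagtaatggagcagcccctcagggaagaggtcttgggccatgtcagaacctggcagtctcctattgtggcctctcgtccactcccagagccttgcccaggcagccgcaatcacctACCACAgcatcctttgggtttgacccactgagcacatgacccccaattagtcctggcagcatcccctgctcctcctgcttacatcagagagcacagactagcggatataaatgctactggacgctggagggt
Spp1 (chr5:104434861-104435110, plus strand): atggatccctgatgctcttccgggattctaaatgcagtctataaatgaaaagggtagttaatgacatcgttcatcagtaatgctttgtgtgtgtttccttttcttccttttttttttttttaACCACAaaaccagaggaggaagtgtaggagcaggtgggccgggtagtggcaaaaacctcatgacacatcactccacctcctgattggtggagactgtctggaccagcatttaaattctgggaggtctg
Phex (chrX:157415287-157415536, minus strand): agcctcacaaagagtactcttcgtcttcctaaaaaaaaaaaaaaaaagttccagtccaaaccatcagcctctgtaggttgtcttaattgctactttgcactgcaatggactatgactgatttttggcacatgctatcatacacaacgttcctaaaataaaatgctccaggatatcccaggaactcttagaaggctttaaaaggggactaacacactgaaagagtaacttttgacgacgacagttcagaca
The motif, sought on both strands, was present 1 time each in the windows of Dmp1, Bglap and Spp1, beginning 164, 132 and 128 bases before the start. It was not found in the windows of Ibsp, Phex, Sparc or Col1a2. The RefSeq starts used for Sparc and Col1a2 lay 3103 and 804 bases from the GENCODE starts, so these windows lay inside the gene spans given above. Of 32851 windows of the same length, 14.05% held the motif, so a match in 3 of 7 describes these letters and shows no binding.

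The control library held 9708 cells with 79518656 UMIs (unique transcript counts) and the mutant library 13820 cells with 120862385 UMIs, with medians of 2643 and 6798 UMIs per cell. The lineage took up 2981 control and 2303 mutant cells, and 139 cell barcodes occurred in both libraries. Levels are in CPM, a gene's share of all counts of the same cells (10 CPM is 0.001% of the counts). Memo1, the targeted gene, stood at 19.0 CPM over all control and 17.7 CPM over all mutant cells. The deleted stretch is not named in the labels and transcripts outside it still count, so the deletion cannot be checked from them. With 1 library per group there was no spread between mice and no test. Ratios are mutant over control with exact 95% intervals of 2 Poisson counts, which cover counting error only. A gene was measured in a class with at least 20 counts over both libraries and 10 CPM on average. It is called higher or lower at a fold of at least 2 with an interval that excludes 1.

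Over all cells together 1 of 7 measured genes was called higher and 0 lower, beside 1.25% and 0.945% of all 9099 genes. This was Dspp, at 14.8 and 30.2 CPM, a ratio of 2.04 (1.91 to 2.18), and with TMM factors, a scaling that sets most genes level, the ratio of 1.85 was no call. The 9 genes fell into 2 kinds of pattern over the clusters. Sparc, Col1a1 and Col1a2 were measured in all 26 all-cell clusters with at least 50 cells in each library. Phex was measured in 1 of them, Dmp1 in 2, Dspp in 3, Ibsp in 9, Spp1 in 11 and Bglap in 12. For those 6 genes the top cell often held a large share of a cluster's counts. The median share over clusters ran from 29.2% (Bglap) to 50% (Ibsp) in the control and from 19.0% (Spp1) to 37.9% (Ibsp) in the mutant, against 4.65% and 3.66% for Sparc. The top cell held over 50% in some clusters for Ibsp, Spp1, Bglap and Dspp and in none for Dmp1 and Phex, and in cluster 25 it held 6.13% and 5.88% of the Dspp.

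**Figure D1:**
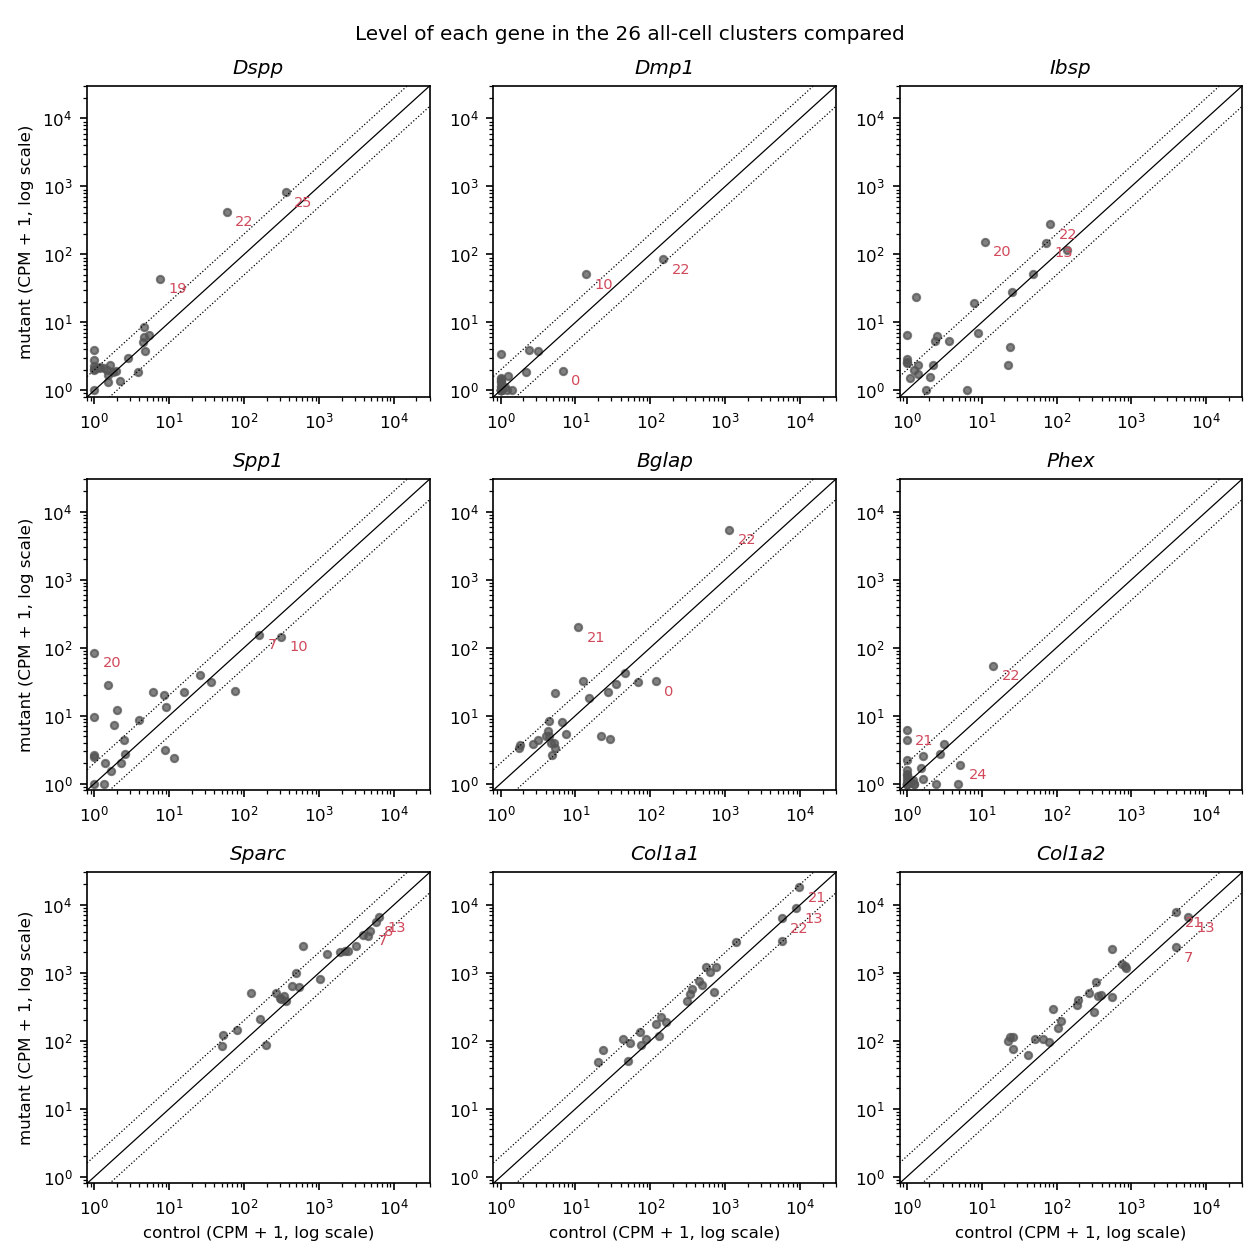
Level of each gene in the control (x axis) and the mutant library (y axis), in CPM + 1 on log scales, with 1 point per all-cell cluster (26 clusters with at least 50 cells in each library). The solid line marks equal levels, the dotted lines 2-fold, and red numbers name the 3 clusters with the highest level; Phex stands out in cluster 22 alone, while Sparc and the collagens spread over every cluster.

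Cluster 22 carried most of the Bglap, Phex and Dmp1 of the control library. Its leading genes were Bglap, Smpd3, Bglap2, Dkk1, Notum, Ifitm5, Sct, Sgms2, Ptn and Plac8. By its markers Smpd3, Dkk1 and Notum it is called odontoblast-like, though it also met the marker rule for osteoblasts through Bglap2 and Ifitm5. Mepe, an osteocyte gene, had 0 counts in it. It held 178 control and 139 mutant cells, 1.83% and 1.01% of the cells. Of all Bglap counts in a library 82.0% lay there in the control and 89.0% in the mutant, and of all Phex counts 60.8% and 67.6%. For Dmp1 those shares were 92.6% and 41.7%.

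In cluster 22, 4 of 8 measured genes were called higher in the mutant and 0 lower, beside 0.859% of all 7803 genes higher and 0.41% lower. The median log2 ratio of the 8 was 1.31 and that of all genes 0.03. Dspp, the precursor of the main phosphoprotein of dentin, was at 57.9 CPM (209 counts) in the control and 423 CPM (992 counts) in the mutant, a ratio of 7.31 (6.29 to 8.53). Bglap, the gene of osteocalcin, a small protein that binds calcium, was at 1125 and 5406 CPM, a ratio of 4.80 (4.64 to 4.98). Since Bglap leads the genes that define the cluster, its level there is a description of which cells were grouped. Phex, a membrane peptidase needed to keep phosphate in the body, was at 13.3 and 53.3 CPM, a ratio of 4.01 (2.85 to 5.72). Ibsp, bone sialoprotein, which seeds mineral crystals, was at 81.8 and 275 CPM, a ratio of 3.37 (2.93 to 3.88). Dmp1, a matrix protein of odontoblasts and osteocytes, was at 149 and 83.6 CPM, 1.78-fold lower (1.51 to 2.11) and short of a call. The collagen chains moved less, with Col1a1 at 5708 and 6417 CPM and Col1a2 at 747 and 1355 CPM. Erythroid markers summed to 175 and 3066 CPM in this cluster, and leaving haemoglobin, mitochondrial and enamel transcripts out of the totals put Bglap at 4.83.

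Few cells carried these levels. Only 4 control and 4 mutant cells of cluster 22 had 10 or more Dspp counts, and they held 97.6% and 99.7% of its Dspp. Having been picked by their Dspp, these cells are described and not compared by a test. The control cells had 12, 15, 49 and 128 Dspp counts and the mutant cells 167, 220, 228 and 374. The same cells held 63.4% and 84.5% of the Bglap, 87.5% and 87.2% of the Phex and 80.4% and 66.8% of the Dmp1 counts of the cluster. Their Bglap counts were 308, 341, 821 and 1105 in the control and 1592, 2265, 3122 and 3724 in the mutant. Their Phex counts ran from 5 to 15 in the control and from 17 to 43 in the mutant. Dmp1 stood the other way for most of them, with 23, 106, 113 and 190 counts in the control cells and 5, 11, 48 and 67 in the mutant cells. Of the cluster's other leading genes, Bglap2 had 147 to 765 counts in the control cells and 309 to 642 in the mutant cells. Dkk1, a secreted inhibitor of Wnt signalling, had 72 to 116 counts in the control and 15 to 54 in the mutant cells, and Ifitm5, a membrane protein of mineralising osteoblasts, had 35 to 56 and 5 to 12. The 4 control cells held 36030 to 40424 UMIs and the 4 mutant cells 29667 to 36555, so the mutant cells were no deeper. The 4 cells of a library come from 1 mouse and are no replicates of a genotype.

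**Figure D2:**
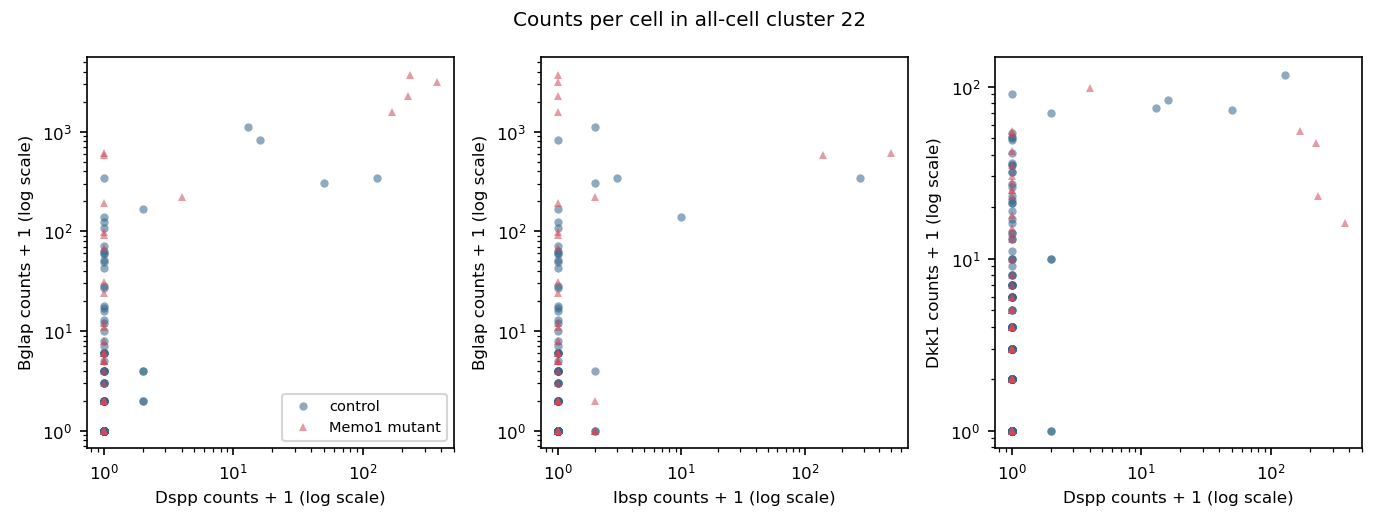
Counts + 1 per cell on log scales in all-cell cluster 22, for Bglap against Dspp, Bglap against Ibsp and Dkk1 against Dspp (178 control cells as circles, 139 mutant cells as triangles). The 4 mutant cells with 167 to 374 Dspp counts sit above the 4 control cells in Bglap and below them in Dkk1, and no cell lies high in both Dspp and Ibsp.

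Ibsp lay in other cells. One control cell with 279 Ibsp counts and 2 mutant cells with 500 and 140 held 94.6% and 99.2% of the Ibsp of cluster 22, and had 0 Dspp counts. They carried Bglap too, with 343 counts in the control cell and 604 and 576 in the mutant cells. Without these 3 cells and the 8 Dspp-rich ones, the ratios in the cluster moved. Dspp then gave 0.947 (0.147 to 4.87), from 5 and 3 counts, and Bglap 1.09 (0.990 to 1.19). Ibsp gave 0.658 (0.182 to 2.01), from 12 and 5 counts, and Phex 2.89 (0.981 to 9.53), from 6 and 11. Col1a1 went from 1.12 with all cells to 0.760 (0.739 to 0.782). Spp1, too scarce to be measured in the cluster, had 28 and 5 counts with all cells and 24 and 4 without these. Without only the top cell of each library, Dspp gave 11.8 and Ibsp 13.97, while without the mutant top cell alone Ibsp gave 0.762. Without the deepest 5% of cells Dmp1 turned to 5.62. The calls for Dspp, Bglap, Ibsp and Phex in cluster 22 were therefore all lost without 11 of its 317 cells. Dspp, Ibsp and Phex were then too scarce to be measured. Since these cells were picked by their Dspp or Ibsp counts, the loss for those genes was fixed in advance.

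Dspp was also a gene of the epithelium. Of its counts 79.1% in the control and 69.7% in the mutant library lay in the lineage, nearly all in lineage cluster 6, whose first leading gene it is, ahead of Stac3, Fxyd4 and Nrn1l. That cluster, with 143 control and 163 mutant cells, met the rule for secretory ameloblasts by 4 of 5 markers, none of them among its top 10 genes, and is called by its number. Over the whole lineage 5 of the 9 genes were measured and 2 were called higher, beside 0.992% of all 7661 genes, with 0 lower beside 1.31%. The median log2 ratio of the 5 was 0.86, against -0.04 for all genes. The genes called were Dspp and Ibsp. Ibsp passed the limit on level only through the mutant library, where 377 of its 545 lineage counts lay in 1 cell. Without the top cell of each library Ibsp fell below that limit. Dspp was at 28.8 CPM (930 counts) in control and 105 CPM (2542 counts) in mutant cells of the lineage, a ratio of 3.64 (3.38 to 3.93). No single cell decided this, since the top cell held 5.91% and 5.74% of the counts and the ratio without both was 3.65. Lineage cluster 6 supplied 4067996 of 32299685 UMIs of the lineage in the control and 4838622 of 24230793 in the mutant. The lineage ratio of Dspp thus includes the cluster's share of the lineage as well as the level within the cluster.

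In lineage cluster 6 itself, all 4 measured genes were called higher, beside 3.55% of all 6555 genes, and 0 lower, beside 0.458%, with a median log2 ratio of 1.78 against 0.18. Dspp was at 224 and 515 CPM, a ratio of 2.29 (2.12 to 2.48). Since Dspp leads the genes that define the cluster, its level there is in part a description of which cells were grouped. A Dspp count was found in 72 of 143 control cells and 103 of 163 mutant cells, 50.3% (41.9 to 58.8, exact Clopper-Pearson) and 63.2% (55.3 to 70.6). After thinning each cell to 1000 UMIs the shares were 16.1% and 30.7%. Median depth was alike, at 28926 and 29809 UMIs. In erythroid-like cluster 18, which should lack the gene, 0 of 259 control cells had a Dspp count, which allows a share of cells with a count of up to 1.16% (3 counts of the total), and 3 of 172 mutant cells (median depths 10660 and 11225 UMIs). Per cell, Dspp in cluster 6 ran from 0 to 55 in the control with a median of 1, and from 0 to 146 in the mutant with a median of 6. At least 10 counts were seen in 34 control and 75 mutant cells. Of the cluster's cells 86 control and 103 mutant cells belonged to all-cell cluster 25, which held 98.2% and 99.6% of its Dspp, at 358 and 820 CPM.

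Sparc, a collagen-binding protein of many matrices, was at 262 and 528 CPM in cluster 6, a ratio of 2.02 (1.88 to 2.17). Col1a1 was at 21.9 and 112 CPM (ratio 5.13, 4.09 to 6.49) and Col1a2 at 21.6 and 120 CPM (ratio 5.53, 4.41 to 7.004). TMM factors shifted every ratio in this cluster by -0.23 on the log2 scale, and 2 of the 4 stayed called: Dspp came to 1.95 and Sparc to 1.71. Mesenchyme markers, 9 of 9 detected, summed to 249 and 471 CPM in the same cells and macrophage markers, 10 of 10, to 87.0 and 257 CPM. The 5 secretory ameloblast markers, mostly enamel proteins, summed to 262766 and 206704 CPM. The part of these in the result was not tested. In the erythroid-like cells, which should lack collagen, Col1a1 stood at 75.001 and 85.1 CPM, above its control level in cluster 6. The control level of Col1a2 in cluster 6 likewise lay under its level in the erythroid-like cells.

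Lineage cluster 4, called by number, met the marker rules of preameloblasts, cycling cells and erythroid cells, with 2 preameloblast and 3 erythroid markers among its top 10 genes. It held a trace of Dspp, 5 counts in 4 of 227 control cells and 19 counts in 14 of 223 mutant cells, a ratio of 4.94 (1.79 to 16.9). Dspp was the 1 of its 4 measured genes called higher, beside 1.7% of all genes, with 0 lower beside 2.88%. In lineage cluster 3, the secretory ameloblast-like cells, Dspp was all but missing, with 1 and 13 counts in 223 and 286 cells.

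In cluster 3, 2 of 3 measured genes were higher, beside 2.04% of all 5745 genes, and 0 lower, beside 0.853%, with median log2 ratios of 2.12 and 0.12. Sparc was at 102 and 491 CPM, a ratio of 4.80 (4.45 to 5.19). Its counts per cell ran from 0 to 60 with a median of 1 in the control, and from 0 to 182 with a median of 4.5 in the mutant, at median depths of 35309 and 32701 UMIs. Cells with 10 or more Sparc counts made up 8.07% of control and 31.5% of mutant cells. Col1a2 was at 25.3 and 110 CPM, a ratio of 4.34 (3.72 to 5.09). Col1a1 was at 21.6 and 42.8 CPM and missed the call, and without the top cells its ratio was 1.54. In the erythroid-like cells Sparc was at 50.1 and 84.0 CPM and Col1a2 at 40.1 and 60.8 CPM, so Col1a2 lay above the erythroid level in the mutant cells of cluster 3 and below it in the control cells. Mesenchyme markers summed to 83.2 and 113 CPM in cluster 3 and macrophage markers to 94.4 and 218 CPM, and their part was not tested.

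**Figure D3:**
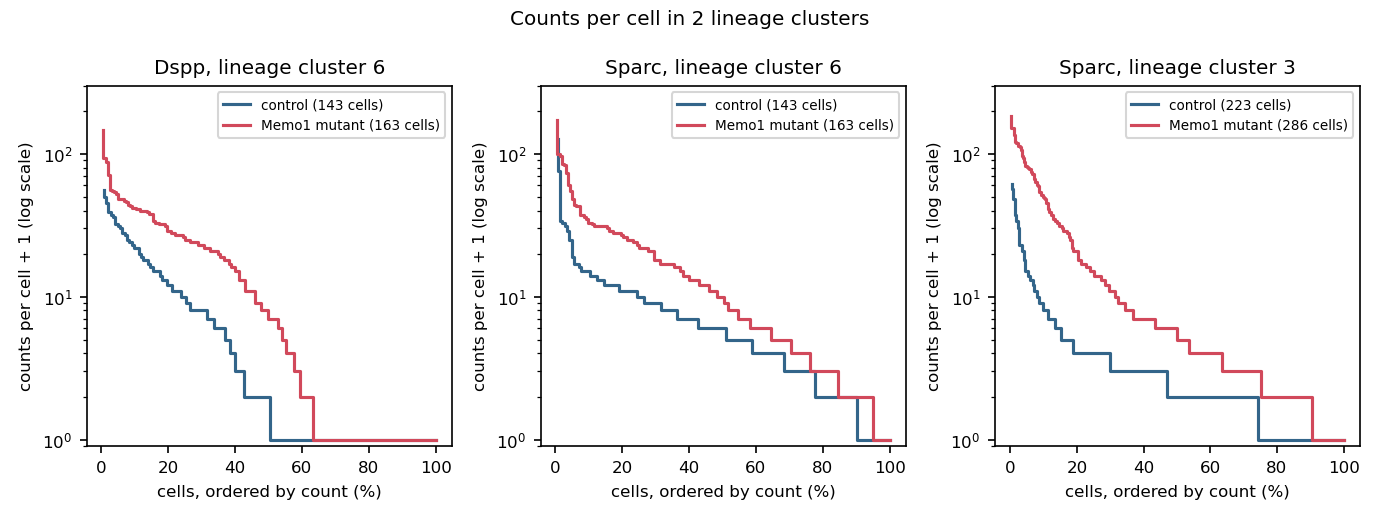
Counts per cell + 1 (log scale) of Dspp and Sparc in lineage cluster 6 and of Sparc in lineage cluster 3, with cells of each library ordered from highest to lowest and placed by percent of cells. The mutant curves lie above the control curves over most of the range, with Dspp seen in 63.2% of mutant and 50.3% of control cells of cluster 6.

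Ibsp, Spp1, Bglap, Dmp1 and Phex were scarce in the lineage. Ibsp was at 2.32 and 22.5 CPM over the whole lineage, a ratio of 9.69 (7.60 to 12.5), but 69.2% of its mutant counts lay in 1 cell of lineage cluster 2. That cell had 377 Ibsp, 242 Spp1, 193 Col1a2, 142 Col1a1 and 94 Sparc counts. It also had 488 counts of Krt17, a keratin of epithelium, and 27316 UMIs in all. Whether this barcode held more than 1 cell was not tested. A second cell of cluster 2 had 57 Ibsp and 63 Spp1 counts. Without the top cell of each library the lineage ratio of Ibsp was 3.40 (2.54 to 4.58) and the levels fell below the limit for measured genes. Ibsp was more evenly spread in lineage cluster 5, the stratum intermedium-like cells, with counts in 13 of 211 control and 31 of 174 mutant cells. It was at 10.5 and 26.2 CPM there, a ratio of 2.51 (1.68 to 3.801). With Sparc (36.4 and 83.2 CPM, ratio 2.29, 1.94 to 2.71) 2 of 4 measured genes were higher, beside 3.89% of all genes, and 0 lower, beside 0.406%. With TMM factors, which shifted ratios there by -0.26 on the log2 scale, Sparc came to 1.91 and lost the call. In lineage cluster 2, where 3 of 5 were higher beside 4.11% and 0 lower beside 1.01%, the levels of Ibsp and Spp1 rested on those 2 cells. Bglap in maturation-like lineage cluster 7 came to 56 counts in 187 control cells and 4 in 78 mutant cells, 7.03-fold lower (2.60 to 26.7), the 1 call of 4 measured genes, beside 9.3% of all genes lower and 5.21% higher. Dmp1 had 5 counts in the whole control lineage and 1 in the mutant lineage, and Phex 13 and 12.

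Outside the lineage, taking all those cells together, 0 of 6 measured genes were called in either direction, beside 0.466% of all 9225 genes higher and 0.878% lower. The ratios ran from 0.902 for Col1a1 (1906 and 1719 CPM) to 1.44 for Bglap (101 and 146 CPM), with a median log2 ratio of 0.21 against 0.10. Dspp and Dmp1 fell short of the level needed, at 5.21 and 11.4 CPM and at 12.2 and 4.85 CPM. Within single clusters the genes did differ.

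**Figure D4:**
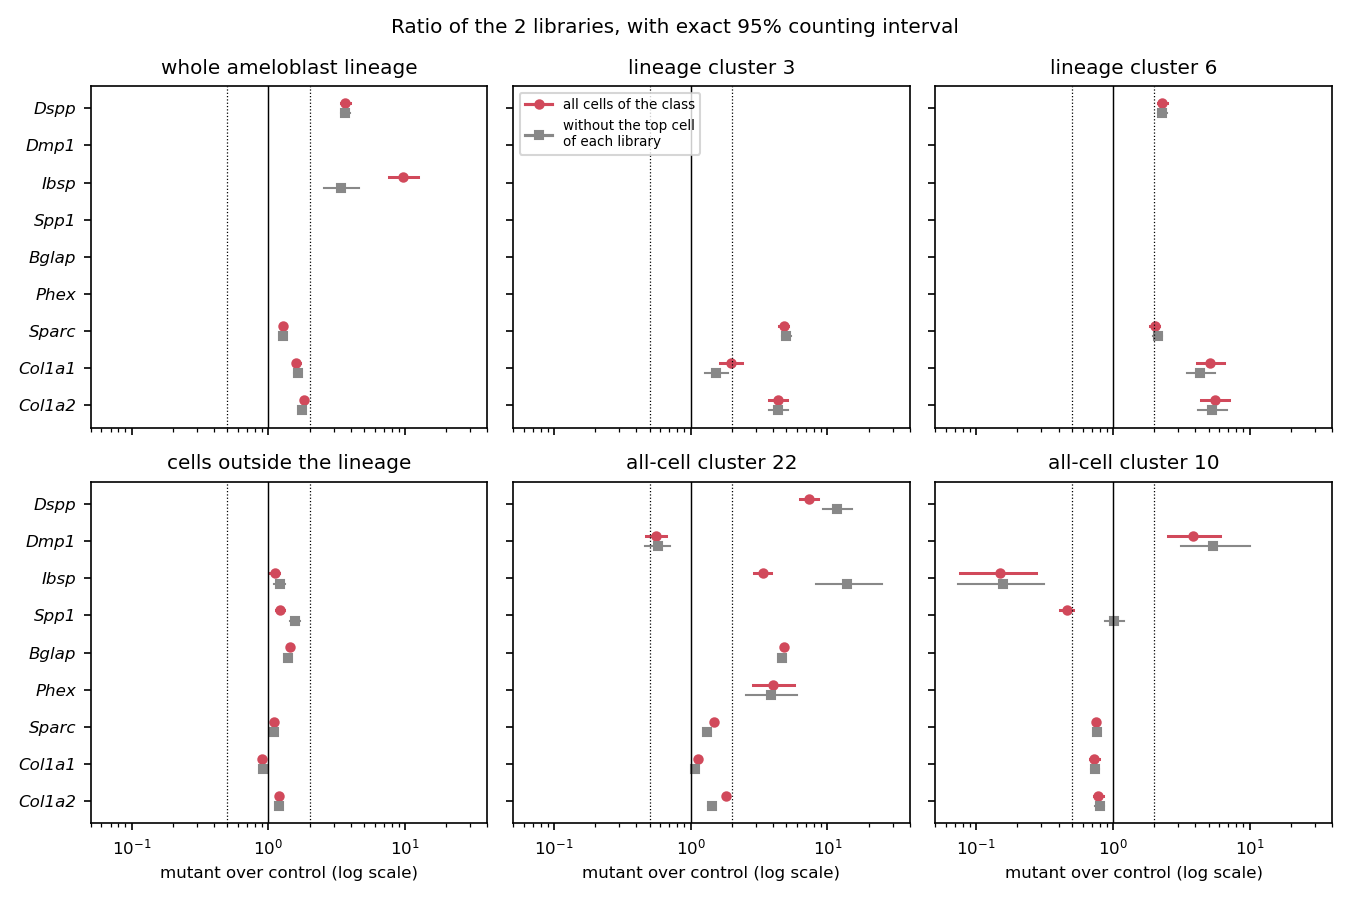
Ratio of mutant to control (log scale) for the genes measured in each of 6 classes of cells, with exact 95% counting intervals. Red circles use all cells of the class and grey squares leave out the cell with the most counts of the gene in each library; dotted lines mark 2-fold. When the top cells go, Ibsp moves from 3.37 to 13.97 in cluster 22 and Spp1 from 0.459 to 1.02 in cluster 10.

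Pericyte-like cluster 10, led by Rgs5 and Ndufa4l2, had 6 measured genes, of which 1 was called higher and 2 lower, beside 1.89% and 0.736% of all genes. Dmp1 was at 13.04 CPM in 12 of 212 control cells and 50.02 CPM in 45 of 551 mutant cells, a ratio of 3.84 (2.51 to 6.12). No Dmp1 count was found in the erythroid-like cells of either library. Cluster 10 was the only cluster besides 22 in which Dmp1 was measured. Ibsp there was at 22.8 and 3.395 CPM, 6.72-fold lower (3.65 to 13.05), from 42 and 15 counts. Spp1, osteopontin, a cell-attachment protein that also restrains crystal growth, was at 312 and 143 CPM, but 60.5% of its control counts came from 1 cell. Without the top cells the Spp1 ratio was 1.02 (0.875 to 1.20).

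Spp1 was highest in cluster 10 of the control, and in the mutant the 95% intervals of clusters 7 (153 CPM) and 10 (143 CPM) overlapped. In macrophage-like cluster 4 it was at 34.8 and 29.8 CPM, with a count in 10.8% of control and 10.3% of mutant cells. There 0 of 4 measured genes were called, beside 0.651% higher and 0.558% lower. In cluster 20, 4 mutant cells held 245 Spp1 counts and the control 0, but 98.8% lay in the 1 cell described for lineage cluster 2.

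Ibsp had a broader source in cluster 13, mesenchyme-like cells whose leading genes were Bmp3, Dkk2 and Lrrc15. It was at 70.5 and 148 CPM, a ratio of 2.10 (1.86 to 2.37), with counts in 30 of 224 control and 88 of 430 mutant cells. It was the 1 of 4 measured genes called, beside 0.496% of all genes higher and 0.424% lower. Thinned to 1000 UMIs the ratio was 1.43 and as a mean of per-cell CPM 1.62, both short of a call. The same cells were the richest compared cluster for Sparc (6369 and 6634 CPM), and Col1a1 was at 8935 and 8893 CPM, a ratio of 0.995 (0.984 to 1.01). Col1a2, among the genes that define cluster 13, was at 5716 and 6553 CPM.

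Sparc and the collagens were highest outside the epithelium. After cluster 13 Sparc was highest in endothelium-like cluster 8, at 5713 and 5626 CPM, a ratio of 0.985 (0.969 to 1.00). Schwann-like cluster 26, with 17 control and 105 mutant cells and so not compared, was at 7690 and 7353 CPM. Cycling cluster 11, led by Cenpf and Ube2c, had 469 control and 276 mutant cells. There 3 of 4 measured genes were higher, beside 5.16% of all 8534 genes, and 0 lower, beside 1.02%. Sparc was at 603 and 2507 CPM (ratio 4.16, 3.98 to 4.36), Col1a2 at 552 and 2264 CPM (4.10, 3.91 to 4.31) and Col1a1 at 1374 and 2858 CPM (2.08, 2.01 to 2.15). With TMM factors Col1a1 came to 1.93 and lost the call. Dividing cells of any type are grouped in such a cluster, so its makeup and the levels cannot be told apart. In fibroblast-like cluster 3 Col1a1 was at 549 and 1233 CPM, a ratio of 2.24 (2.17 to 2.33), the 1 call of 5 measured genes, beside 0.821% higher and 1.28% lower. In fibroblast-like cluster 7 it was at 5712 and 2892 CPM, 1.98-fold lower (1.92 to 2.03), just short of a call, and 0 of 5 were called beside 2.61% higher and 1.81% lower. In endothelium-like cluster 8, Col1a2 was at 25.2 and 74.2 CPM, under or near the level of the erythroid-like cells, and was the 1 call of 3 genes, beside 0.57% higher and 0.461% lower. In mesenchyme-like cluster 5, Bglap was the 1 call of 4 genes, beside 1.4% higher and 2.45% lower, from 3 control and 221 mutant counts. One mutant cell held 54.8% of these, and without the top cells the interval included 1 (0.874 to 27.1).

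The epithelial clusters of the all-cell numbering overlap with the lineage clusters, so their values are not independent of those above. In secretory ameloblast-like cluster 14, led by Amelx and Ambn, all 3 measured genes were higher, beside 2.08% of all genes, and 0 lower, beside 0.579%. Sparc was at 122 and 498 CPM (ratio 4.08, 3.83 to 4.36), Col1a1 at 22.1 and 72.3 CPM (3.27, 2.80 to 3.83) and Col1a2 at 23.2 and 111 CPM (4.79, 4.14 to 5.57). Col1a1 in both libraries, and Col1a2 in the control, lay under their levels in the erythroid-like cells, which should lack collagen. In cluster 25, led by Dspp, 3 of 4 were higher, beside 3.93%, and 0 lower, beside 0.896%, with Dspp at a ratio of 2.29. As in lineage cluster 6, the level of Dspp there in part describes which cells were grouped. Preameloblast-like cluster 19 was the third cluster with a measured level of Dspp, at 6.45 and 43.0 CPM, from 5 and 26 counts (ratio 6.67, 2.52 to 22.2). There 2 of 4 were higher, beside 2.01%, and 0 lower, beside 2.67%. Maturation-like cluster 24, led by Odam, Amtn and Klk4, went the other way. Of 4 measured genes 2 were lower and 0 higher, beside 9.44% and 4.73% of all genes: Sparc at 195 and 84.7 CPM (2.30-fold lower, 1.84 to 2.90) and Bglap at 28.4 and 3.56 CPM, from 68 and 4 counts.

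Clusters 2, 16 and 20 met the epithelium rule and are called by number, as is cluster 0, led by Ldhb and Pcp4. Col1a2 was higher in all 4, at 193 and 403 CPM in cluster 2, 50.2 and 105 CPM in cluster 16, 25.1 and 114 CPM in cluster 20, and 336 and 737 CPM in cluster 0. Its control level in cluster 20 lay under that of the erythroid-like cells. With TMM factors the call remained in cluster 20 (3.83) and was lost in clusters 2 (1.96), 16 (1.81) and 0 (1.95). In cluster 2, 3 of 5 measured genes were higher, beside 3.67%, and 0 lower, beside 1.87%. In cluster 16 these were 3 of 5, beside 4.36%, and 0, beside 1.02%, but Ibsp (57 mutant counts) and Spp1 (70) lay in 1 mutant cell for 100% and 90% of their counts. In cluster 20 Spp1, with 0 control counts, passed the limits for a measured gene only through 1 mutant cell. The other 4 measured genes were called higher, beside 3.66%, and 0 lower, beside 0.404%, but with TMM factors Sparc came to 1.99 and without the top cells Col1a1 came to 1.70. In this cluster 1 mutant cell held 57.3% of its Col1a2 and 46.1% of its Col1a1 counts. In cluster 0, 3 of 6 were higher, beside 6.9%, and 1 lower, beside 0.794%. The lower one was Bglap, at 117 and 30.7 CPM, and 1 control cell held 62.0% of its counts there. In lineage cluster 0, led by Pmch and Cox7a1, 3 of 5 were higher, beside 5.05%, and 0 lower, beside 2.6%, with Col1a2 at 162 and 387 CPM (2.38, 2.07 to 2.75). In lineage cluster 1 no gene of 3 was called, beside 4.49% higher and 3.37% lower.

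In 3 other clusters a call rested on 1 cell. In erythroid-like cluster 18 Bglap was the 1 of 4 called lower (52 and 7 counts, 76.9% of the control counts in 1 cell), beside 3.19% lower and 3.85% higher. In cluster 17 Spp1 was the 1 of 5 called lower (20 and 8 counts, 80% in 1 control cell), beside 2.08% lower and 3.69% higher. In cluster 21, led by Col1a1, Bglap was the 1 of 6 called higher (2 and 78 counts, 89.7% in 1 mutant cell), beside 5.45% higher and 7.46% lower. None of the 3 kept its call without the top cells. No measured gene was called in clusters 1, 6, 9, 12, 15 and 23. The shares of all genes higher and lower were 3.52% and 0.653% in macrophage-like cluster 1 and 0.679% and 1.05% in mesenchyme-like cluster 6. In endothelium-like cluster 9 they were 3.59% and 1.31%. They were 4.23% and 1.2% in cluster 12, 1.19% and 1.87% in endothelium-like cluster 15, and 3.88% and 1.8% in cluster 23.

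**Figure D5:**
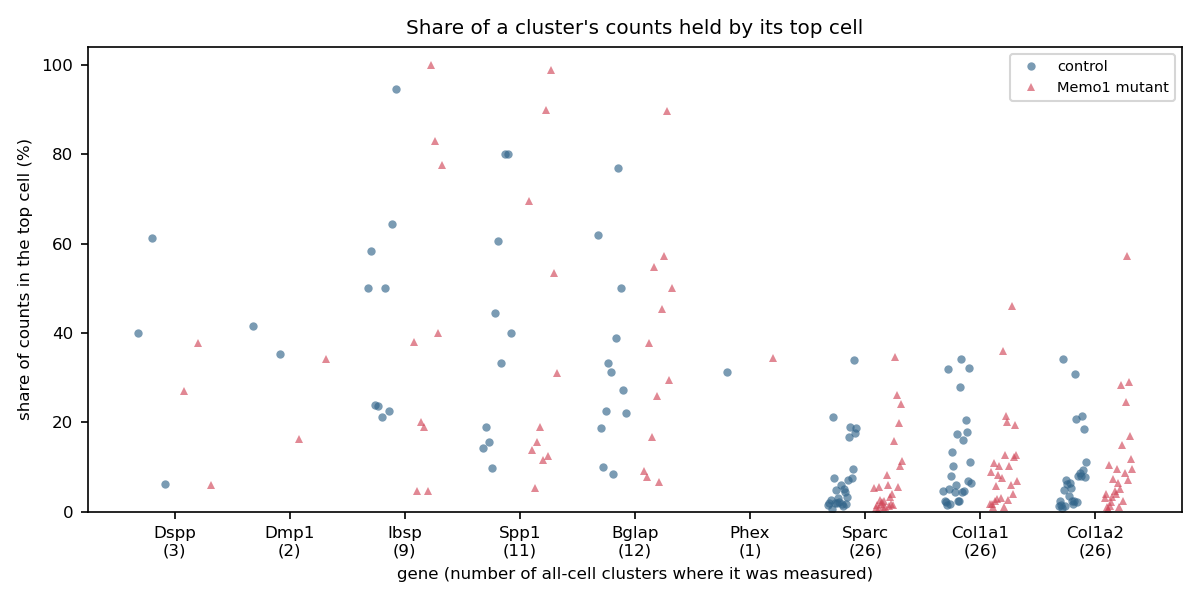
Share of a cluster's counts of a gene that its top cell held (y axis, percent), with 1 point per all-cell cluster in which the gene was measured (number under each name), for control (circles) and mutant (triangles). The shares of Ibsp reach 94.6% in the control and 100% in the mutant, while the medians of Sparc, Col1a1 and Col1a2 lie between 3.66% and 7.87%.

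The genes most like each member over clusters were found by Pearson's r of log2(CPM + 1) over 55 points, each 1 all-cell cluster in 1 library, among 9076 genes. These points share libraries and depth, so r is a description. Col1a1 and Col1a2 were nearest to each other (r = 0.93), followed for both by Col3a1 and Col5a1. Bglap was nearest to its near-identical neighbour Bglap2 (r = 0.90) and then to Phex (0.81), and Phex to Bglap. Reads that fit both Bglap and Bglap2 cannot be assigned with certainty, and the sum of Bglap, Bglap2 and Bglap3 gave a ratio of 3.84 in cluster 22. Dmp1 was nearest to Dkk1 (0.62), Ibsp to Notum (0.72), Spp1 to Fam129a (0.69) and Sparc to Fkbp10 (0.87). The r of Dspp with Dmp1, a neighbour on chromosome 5, was 0.39, with Ibsp 0.06 and with Spp1 -0.18.

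Other genes of mineralised matrix came from 5 lists with 69 genes: collagen processing, other matrix proteins, mineral ions, transcription factors and receptors. In lineage cluster 6, 10 of 42 measured list genes were higher and 0 lower, beside 3.55% and 0.458% of all genes, and with TMM factors 7 were, Loxl2 falling short at 1.90. Col11a1, a fibrillar collagen chain, was at 3.69 and 61.0 CPM (ratio 16.5, 9.86 to 29.9), Col3a1 at 17.4 and 101 CPM (5.81, 4.53 to 7.57) and Loxl2, which cross-links collagen, at 92.7 and 207 CPM (2.23, 1.98 to 2.52). None of 5 measured receptor genes and none of 5 mineral ion genes was called there. In lineage cluster 3, 5 of 32 were higher and 0 lower, beside 2.04% and 0.853%, and with TMM factors 4 were higher and 2 lower, Loxl2 being higher in both, at 21.999 and 60.6 CPM. Over the whole lineage 4 of 47 were higher and 2 lower, beside 0.992% and 1.31%, with Loxl2 at 25.1 and 71.2 CPM, Col3a1 at 38.3 and 94.0 CPM and Tnc, the gene of tenascin C, at 103 and 46.1 CPM. In cluster 22, 3 of 51 were higher and 1 lower, beside 0.859% and 0.41%. Bglap2 was at 611 and 1269 CPM (2.08, 1.97 to 2.20). The Dspp-rich cells held 66.4% of the control and 64.7% of the mutant Bglap2 counts of the cluster, and the Ibsp-rich cells 5.04% and 22.6%. A ratio of Bglap2 without these cells was not computed. Col12a1 was at 23.0 and 53.8 CPM (2.34, 1.76 to 3.12), and Loxl2 at 51.0 and 19.6 CPM, 2.60-fold lower. No transcription factor of the list, such as Runx2 or Sp7, was called among the 11 measured in cluster 22.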

How the data were processed

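Counts of UMIs per gene and cell, deposited by the authors as whole numbers, came from Cell Ranger (version not given in the sources used here), Seurat 3 and mm10, per the submitters' processing notes. The authors' deposited cell table gave library, lineage and cluster numbers, without names. All 23528 cells in the file were used, each with at least 501 UMIs, and doublets were not called. Counts were summed per library and cluster and divided by the class total (CPM). Clusters with at least 50 cells in each library were compared, 8 of the lineage and 26 of all cells, which share cells. Names needed 3 markers at 1.5-fold and a mean, on the log2 scale, of at least 2-fold over the whole marker list. Clusters called mesenchyme-like or fibroblast-like met the same marker list, so these names mark no difference of type. The 9 genes, the lists and the rules were chosen with earlier results of these data known. Named are all 9 genes, the 3 nearest genes of each, a cluster's leading 10, and list genes with at least 50 counts and 50 CPM, up to 5 each way by the nearer bound of the interval. The gene nearest to Dspp is not reported here. Intervals were tested on simulated Poisson counts, which hold no spread between cells or mice, so the test does not bear on such spread. UMI counts cover counting error only, and their number limits precision. Python 3.11.15, numpy 2.4.6, pandas 2.3.3, scipy 1.17.1, matplotlib 3.10.9, R 4.3.3, edgeR 4.0.16 and DESeq2 1.42.0 (scaling factors only) were used. The alternatives were TMM and median-of-ratios factors, totals without abundant transcripts, stricter cell limits (1000 UMIs, 500 genes, 10% mitochondrial counts), thinning to 1000 UMIs, means of per-cell CPM, and dropping the deepest 5% of cells or the top cell. Others were no filter on low counts, a minimum of 100 counts, and Bglap with Bglap2 and Bglap3.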

Additional observations from a re-analysis of the deposited data

Results flagged for a closer look

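A few genes went opposite ways in different all-cell clusters, each beyond 2-fold with an interval that also excluded 1 without the top cell of each library. The difference between clusters was not tested, and with 1 mouse per group it could not be. Ibsp was lower in the mutant library in pericyte-like cluster 10 (ratio 0.149) and higher in clusters 2 (2.66), 13 (2.10), 20 (15.3) and 22 (3.37). Bglap was lower in cluster 0 (0.264) and in maturation-like cluster 24 (0.126) and higher in cluster 22 (4.80), where it is among the defining genes. Sparc was lower in cluster 24 (0.434) and higher in clusters 0 (2.03), 11 (4.16), 14 (4.08) and 20 (2.36). In cluster 20, 83.0% of the mutant Ibsp counts came from 1 cell, and in cluster 0, 62.0% of the control Bglap counts did, with ratios of 3.36 and 0.630 once the top cells were left out. In cluster 22, Ibsp gave 0.762 without the mutant top cell alone. Sparc in cluster 0 came to 1.81 with TMM factors and 1.95 without the top cells, and in cluster 20 to 1.99 with TMM factors, all under 2-fold.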

How the results depend on the processing

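No paired analysis was possible because each group had 1 library, and for the same reason no library could be left out. Counts of genes called were unchanged or within 1.5 times in 88 of 100 planned recomputations. In the whole lineage, 4 genes were higher with stricter cell limits (Col1a1 and Col1a2 passing at 2.10 and 2.18), and 1 with thinned cells or without the top cell of each gene. Outside the lineage, stricter cell limits gave 1 higher and 1 lower, and so did no filter on low counts. In cluster 22, no filter gave 1 lower. In cluster 5, 0 genes were higher with stricter cell limits, with thinned cells, without the 5% of deepest cells or without the top cell. The Bglap ratio there turned to 0.408 with thinned cells and 0.983 without the deepest cells. Spp1 in cluster 10 turned to 1.02 without the top cell. In lineage cluster 6, 2 genes were higher with TMM or median-of-ratios factors. In cluster 10, 1 gene was lower with thinned cells, means of per-cell CPM, a minimum of 100 counts or without the top cell. In cluster 13, 0 were higher with stricter limits, thinned cells or means of per-cell CPM, and 2 with no filter. The cause was not tested. With TMM factors 48 of 57 calls of these genes in clusters, where both libraries had counts, remained, and 46 did without the top cells. The TMM shift passed 0.1 on the log2 scale in 15 of 34 compared clusters and ran from -0.26 to 0.08. In cluster 22, without the 5% of deepest cells, Dspp gave 85.6, Phex 30.3 and Dmp1 5.62, since this leaves out all 4 Dspp-rich control cells and 3 of the 4 mutant ones. The alternatives for lineage cluster 6 and clusters 10 and 13, the removal of the 11 cells, and TMM over every cluster were chosen after seeing the data. Levels of Dspp, Dmp1 and Phex outside the 1 to 3 clusters that gave a measured level were too near 0 for a ratio at this depth.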
